A study of Mus musculus with 2 samples.

Results

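The insulin-like growth factor 1 (IGF1) gene set of the mitral valve was followed through its 10 genes, the ligand Igf1, its receptor Igf1r, the binding proteins Igfbp2, Igfbp3, Igfbp4, Igfbp5, Igfbp6 and Igfbp7, and the proteases Pappa and Pappa2. They were taken by gene symbol from the 32285 genes of the deposited tables. Single cells came from anterior and posterior mitral leaflets of C57BL/6J mice at 1 month of age, digested with collagenases, dispase, elastase and hyaluronidase. The wild type library (Fbn1 +/+) pooled 5 mice and the Fbn1 C1039G/+ library pooled 3, and each genotype had 1 library. Fbn1 encodes fibrillin-1, a protein of extracellular microfibrils, and the C1039G allele, carried here with a wild type allele in every cell of the mouse, is used as a model of Marfan syndrome.

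IGF1 is a secreted growth factor that binds the receptor tyrosine kinase encoded by Igf1r and signals through insulin receptor substrates, PI3K and AKT. Binding proteins hold IGF1 in the extracellular space and keep it from the receptor, and the metalloproteases pappalysin-1 (Pappa) and pappalysin-2 (Pappa2) cut some of them and set the ligand free. Pappalysin-1 is best known for cutting IGFBP4 and IGFBP5, and pappalysin-2 for cutting IGFBP3 and IGFBP5. IGFBP7 binds IGFs weakly and is also a matrix and vessel protein. In connective tissue, IGF1 is made largely by fibroblasts and macrophages and acts on growth and matrix synthesis.

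Sequences just upstream of the start sites are given for 3 binding protein genes, because Igfbp3 and Igfbp4 had their highest level in the same interstitial cell state and Igfbp7 was read in nearly every interstitial cell. Each is the 250 bases before the RefSeq start site on the GRCm38.p6 build, written 5′ to 3′ on the gene's strand, with motif matches in capitals.
Igfbp3, chr11:7213924-7214173, minus strand: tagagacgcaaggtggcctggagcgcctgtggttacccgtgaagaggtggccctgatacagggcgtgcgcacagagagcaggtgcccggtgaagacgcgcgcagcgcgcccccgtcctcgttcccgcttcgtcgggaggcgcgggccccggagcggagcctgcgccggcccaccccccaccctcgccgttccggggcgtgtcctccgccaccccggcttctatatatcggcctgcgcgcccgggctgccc
Igfbp4, chr11:99040994-99041243, plus strand: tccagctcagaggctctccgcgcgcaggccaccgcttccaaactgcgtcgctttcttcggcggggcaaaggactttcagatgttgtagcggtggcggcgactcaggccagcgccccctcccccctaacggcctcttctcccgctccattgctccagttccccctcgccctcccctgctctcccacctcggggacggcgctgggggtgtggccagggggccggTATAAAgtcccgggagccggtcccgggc
Igfbp7, chr5:77408046-77408295, minus strand: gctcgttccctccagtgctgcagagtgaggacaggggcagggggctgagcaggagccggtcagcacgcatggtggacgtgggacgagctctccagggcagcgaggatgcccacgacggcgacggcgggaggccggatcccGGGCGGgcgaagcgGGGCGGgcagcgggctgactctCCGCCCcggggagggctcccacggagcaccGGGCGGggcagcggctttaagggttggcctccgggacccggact
The motifs searched on both strands were the TATA box TATAAA, the GC box GGGCGG, the CCAAT box with those letters, the AP-1 motif TGACTCA, the FOXO motif GTAAACA and the STAT motif TTCNNNGAA, and no 2 matches in these windows shared bases. Igfbp4 held 1 TATA box, 28 bases before its start, and 12.4% of 32851 promoter windows of the same length held that motif. Igfbp7 held 4 GC boxes, at 110, 96, 74 and 44 bases before its start, and 32.7% of windows held at least 1. Igfbp3 held none of these exact letters, though close to its start it reads tatatat, a near match to the TATA box that the search did not count. Its window had 32 CG dinucleotides and 73.2% G or C, against medians of 6 and 52.4% over all windows. Igfbp4 and Igfbp7 windows had 22 and 26 CG dinucleotides.

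On mm10 with GENCODE release M21, Igfbp3 lies on chromosome 11 (7206086 to 7213923, minus strand), with Igfbp1 on the opposite strand 3539 bases away. Igfbp4 lies on the same chromosome (99041244 to 99054392, plus strand). Igfbp2 and Igfbp5 are neighbours on chromosome 1, 5457 bases apart and on opposite strands. Igf1 lies on chromosome 10 (87858265 to 87937042, plus strand) and Igf1r on chromosome 7 (67952827 to 68233668, plus strand). All 10 are annotated as protein-coding genes.

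The libraries held 100969482 and 103663375 unique molecular identifiers (UMIs, 1 per captured transcript molecule) in 9509 and 9744 barcodes. Barcodes under 1000 UMIs or over 20% mitochondrial UMIs were set aside, which left 9395 and 9540. Interstitial-like cells, whose namesakes are fibroblasts that build leaflet matrix, had at least 1% of their UMIs from Dcn, Col1a1, Col1a2 and Col3a1 and numbered 7557 and 7768. Near that limit, 261 and 290 barcodes had 0.5% to under 1% and 1718 and 1289 had 1% to under 2%. Below that limit, macrophage-like cells (at least 10 UMIs of C1qa, C1qb and C1qc) numbered 813 and 890, and endothelial-like cells (at least 5 UMIs of Pecam1, Cdh5 and Emcn) numbered 250 and 318. Smaller gates gave 135 and 69 T or innate lymphoid-like and 116 and 79 melanocyte-like cells. All 8 interstitial, all 7 macrophage and all 7 endothelial markers outside the gates reached 20 CPM (UMIs of a gene per 1000000 UMIs of the class) in their own class in both libraries. The endothelial-like cells also held 7 of the 8 interstitial markers at that level, among them Pdgfra at 264 and 353 CPM, against 114 and 85.7 CPM in interstitial-like cells. What places these transcripts there was not tested. Interstitial-like cells included 170 and 207 barcodes with at least 10 C1q UMIs and 65 and 141 with at least 5 endothelial UMIs. The libraries shared 17 barcode sequences.

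Values below are given for the wild type and then the Fbn1 C1039G/+ library. A level is the summed UMIs of a class as CPM, with a 95% Poisson interval in parentheses, and a ratio is Fbn1 C1039G/+ over wild type with an exact conditional binomial interval. Both intervals cover counting error only. With 1 library a genotype there is no replicate, so no difference could be tested against the spread between mice, dissections or library preparations. A gene counted as measured in a class with at least 20 CPM in either library and 50 UMIs over both, and was called when the libraries differed by 1.5-fold or more with an interval that excluded 1. Each molecule was counted once from its 3′ end, so levels of different genes need no length term.

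The first question was which valve cells hold each transcript. In both libraries 7 of the 10 genes had their highest level in interstitial-like cells: Igf1, Igfbp2, Igfbp3, Igfbp4, Igfbp7, Pappa and Pappa2. The Pappa order rests on a small gap in the Fbn1 C1039G/+ library, where interstitial-like and endothelial-like cells stood at 15.7 and 15.6 CPM. Igf1r, Igfbp5 and Igfbp6 were highest in endothelial-like cells.

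**Figure D1:**
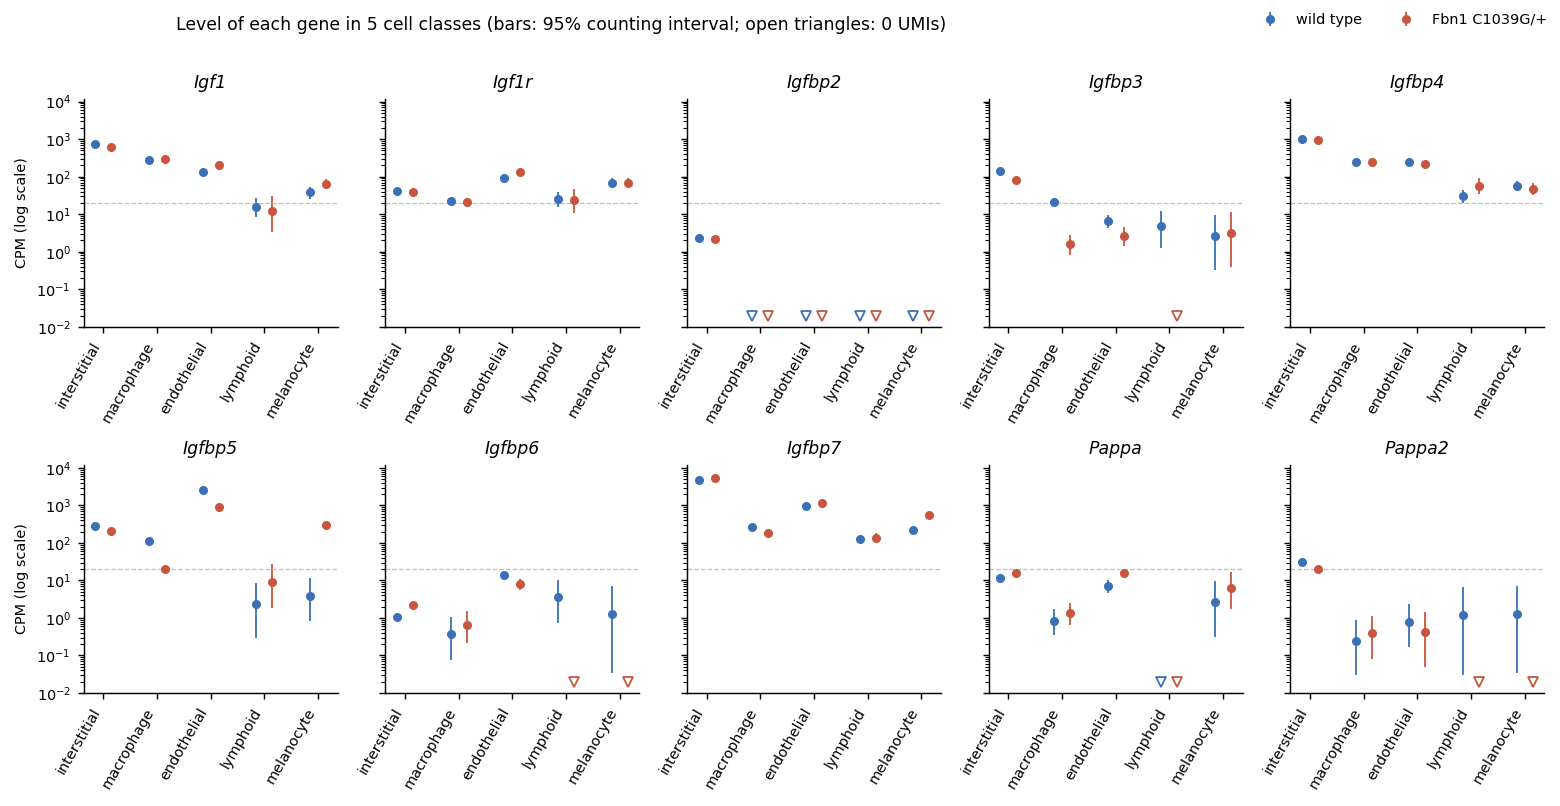
Level of each gene in CPM (log scale) in 5 cell classes, wild type in blue and Fbn1 C1039G/+ in red, with 95% counting intervals as bars, open triangles for 0 UMIs and a dashed line at 20 CPM. Igf1, Igfbp4 and Igfbp7 are read in every class and highest in interstitial-like cells, while Igfbp5 peaks in endothelial-like cells at 2617 and 884 CPM.

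Igf1, the ligand, stood at 767 CPM (761 to 773) and 638 CPM (633 to 644) in interstitial-like cells. It was read in 94.4% and 90.6% of these cells, at median depths of 10086 and 10094.5 UMIs, and in 77.0% and 70.9% once each cell was thinned to 3000 UMIs (40 and 292 shallower cells left out). Macrophage-like cells were next at 271 CPM (260 to 283) and 300 CPM (288 to 313), then endothelial-like cells at 134 CPM (123 to 147) and 204 CPM (192 to 218). These 3 levels do not overlap in either library.

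Igf1 in macrophage-like cells was at 35.4% and 47.1% of its interstitial level. The 8 interstitial markers outside the gate stood there at 2.31% (Prg4) to 25.8% (Vim) and at 1.38% (Prg4) to 22.8% (Vim) of their interstitial levels. Vim, an intermediate filament gene that macrophages also express, was the only one of the 8 above 9.50% and 6.34%, the values of Pdgfra. T or innate lymphoid-like cells, which served as cells that should lack the gene, held Igf1 at 2.01% and 1.92% of the interstitial level. At the thinned depth, Igf1 was read in 41.1% and 45.0% of macrophage-like cells and in 4.88% and 3.64% of lymphoid-like cells (64.1% and 63.8%, and 4.44% and 5.80%, without thinning, at median depths of 8328 and 7432, and 4607 and 4038 UMIs). The macrophage share therefore stood well above the share in the lymphoid-like class of the same library.

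Igf1r, the receptor, was present at lower counts everywhere. It stood at 92.0 CPM (82.5 to 102) and 137 CPM (127 to 148) in endothelial-like, 69.4 CPM (52.0 to 90.8) and 70.02 CPM (50.9 to 94.005) in melanocyte-like and 41.5 CPM (40.2 to 42.95) and 39.5 CPM (38.2 to 40.8) in interstitial-like cells. In the wild type library the endothelial-like and melanocyte-like intervals overlap. Macrophage-like cells, which held much Igf1, held Igf1r at 22.0 and 20.7 CPM, next to lymphoid-like cells at 24.9 and 24.5 CPM with overlapping intervals.

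The binding proteins spanned more than 3 orders of magnitude in level. Igfbp7 was the most abundant of the 10 genes in interstitial-like cells, at 4717 and 5319.8 CPM, and was read in 99.95% and 99.88% of them. Igfbp4 followed at 994 and 967 CPM and was read in 93.6% and 92.9% of cells. Igfbp3 and Igfbp5 were restricted to fewer cells: Igfbp3, at 141 and 81.0 CPM, was read in 20.1% and 15.6% of interstitial-like cells (13.3% and 9.93% when thinned), and Igfbp5, at 283 and 214 CPM, in 31.7% and 25.4% (22.1% and 17.4%). The tenth of interstitial-like cells with the most Igfbp3 held 90.4% and 93.7% of its UMIs. The same share for Igf1 was 31.3% and 35.3%.

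Igfbp2 and Igfbp6 were rare. Igfbp2 was read in 25 and 44 interstitial-like cells, and 5 cells in each library held 77.8% and 57.3% of its interstitial UMIs. It had 0 UMIs in the 813 and 890 macrophage-like cells, which allows a share of up to 0.369% and 0.337% of cells with a UMI (3 counts), and 0 in the endothelial-like, lymphoid-like and melanocyte-like cells. Igfbp6 stood at 14.005 CPM (10.5 to 18.3) and 8.005 CPM (5.69 to 10.9) in endothelial-like cells and at 1.08 and 2.20 CPM in interstitial-like cells, under the level needed for a comparison of the libraries.

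Of the proteases, Pappa2 was confined almost wholly to interstitial-like cells among the 5 classes, at 31.8 CPM (30.6 to 33.0) and 20.6 CPM (19.6 to 21.6), with 2 and 3 UMIs in all macrophage-like and 3 and 2 UMIs in all endothelial-like cells. It was read in 16.2% and 11.4% of interstitial-like cells, or 6.93% and 4.96% at the thinned depth. Pappa was lower and wider, at 11.3 and 15.7 CPM in interstitial-like and 7.13 and 15.6 CPM in endothelial-like cells, and it was under the level filter in both.

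The second question was which of these levels differed between the libraries in interstitial-like cells. Of the 10 genes, 7 were measured there, and 2 of them, Igfbp3 and Pappa2, were lower in the Fbn1 C1039G/+ library while none was higher. Over all 6563 measured genes of this class, 1.42% were lower and 0.945% were higher by the same rule. The median log2 ratio was -0.26 over the 7 genes and 0.03 over all measured genes, and 6 of the 7 were below 0.

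Igfbp3, the main carrier of circulating IGF1, stood at 141 CPM (138 to 143) and 81.0 CPM (79.1 to 82.9), a ratio of 0.576 (0.559 to 0.593). Pappa2 had a ratio of 0.648 (0.610 to 0.688), from 2629 and 1780 UMIs. Both were lower in female and in male cells of the Fbn1 C1039G/+ library, at ratios of 0.522 and 0.697 for Igfbp3 and of 0.572 and 0.724 for Pappa2, but neither passed 1.5-fold in male cells. With cells of both sexes among 3 pooled mice, 1 sex of that library is a single mouse, so sex and mouse cannot be told apart. Pappa2 also missed 1.5-fold when each cell had the same weight (log2 ratio -0.52) and when cells were thinned (log2 ratio -0.48).

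Both calls also moved with the make-up of the interstitial-like cells. When each of 16 interstitial-like states, described below, had the same weight in both libraries, the log2 ratio of Igfbp3 went from -0.79 to -0.36 and that of Pappa2 from -0.60 to -0.39, and neither passed 1.5-fold. The state richest in Igfbp3, led by Mmp3 and C3, held 824 and 484 cells, and the state richest in Pappa2, led by Chad and Cilp2, held 967 and 662. How far digestion and capture set these numbers was not tested.

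The other 5 measured genes stayed within 1.5-fold. Igf1 had a ratio of 0.832 (0.823 to 0.842) and Igfbp5 one of 0.756 (0.742 to 0.771). The Igfbp5 ratio was 0.896 in female and 0.635 in male cells, and only the male value passed 1.5-fold. Igf1r (0.9504, 0.906 to 0.997) and Igfbp4 (0.973, 0.964 to 0.983) were the closest to 1. Igfbp7, at 1.13 (1.12 to 1.13), was the only one of the 7 above 1. Below the level filter, Pappa had a ratio of 1.39 (1.28 to 1.51) and Igfbp6 one of 2.04 (1.58 to 2.66) from 89 and 190 UMIs. The Igfbp6 ratio was 4.41 in female cells (25 and 119 UMIs) and 0.791 (0.517 to 1.20) in male cells (56 and 42 UMIs). Summed markers of other cell types in the interstitial-like cells also differed between the libraries: endothelial markers stood at 34.4 and 68.0 CPM, erythroid genes at 956 and 433 CPM, macrophage markers at 316 and 240 CPM and mural markers at 275 and 274 CPM. Their part in these ratios was not tested. Leaving out barcodes with C1q or endothelial UMIs past the limits of those classes gave log2 ratios of -0.77 for Igfbp3 and -0.63 for Pappa2. That step did not select on erythroid or mural genes.

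**Figure D2:**
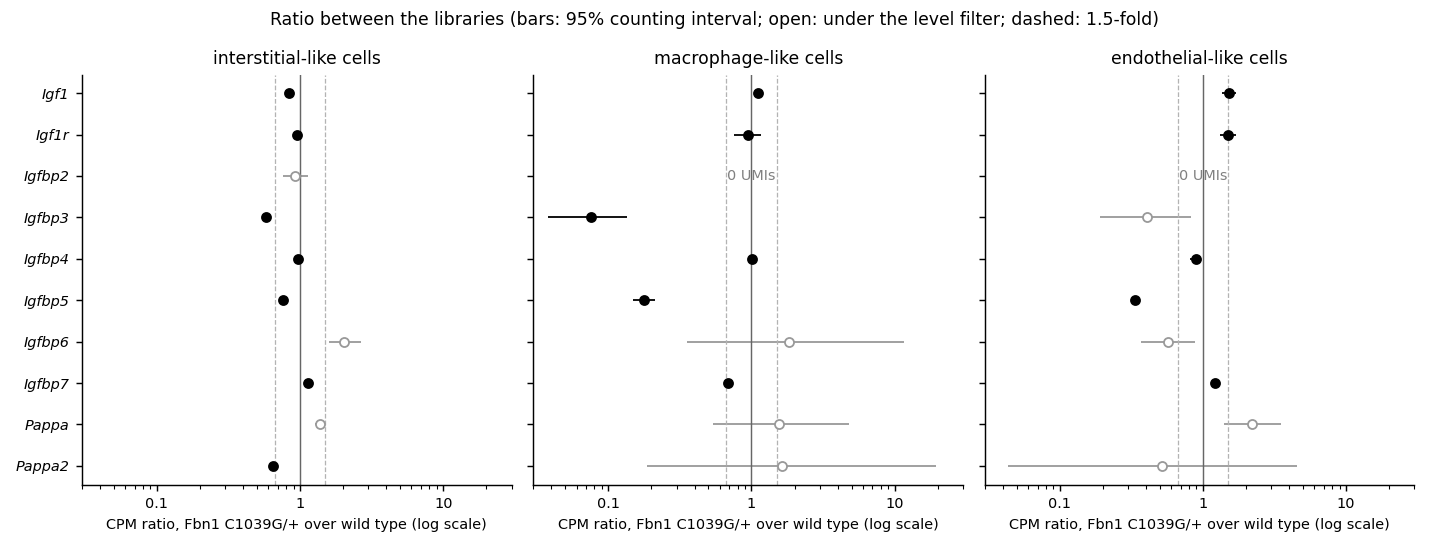
Ratio of CPM, Fbn1 C1039G/+ over wild type (log scale), for each gene in 3 cell classes, with 95% counting intervals. Filled points are measured genes, open grey points are under the level filter and dashed lines mark 1.5-fold. Igfbp3 and Pappa2 lie below the lower line in interstitial-like cells, and Igfbp5 lies at 0.178 and 0.338 in macrophage-like and endothelial-like cells.

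In endothelial-like cells 5 of the 10 genes were measured, of which Igfbp5 was lower and Igf1 higher in the Fbn1 C1039G/+ library. Over all 7240 measured genes of this class 3.23% were lower and 3.22% higher. Igfbp5, a binding protein that also attaches to the matrix, stood at 2617 CPM (2566 to 2669) and 884 CPM (858 to 911), a ratio of 0.338 (0.326 to 0.350). It was read in 52.4% and 38.1% of endothelial-like cells, and in 43.1% and 29.0% at the thinned depth. The ratio was 0.356 in female and 0.381 in male cells, and without the 5 cells of each library richest in Igfbp5 the levels were 1987 and 667 CPM.

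Igfbp5 was lower both in endothelial-like cells with and in those without a UMI of Prox1, a transcription factor of lymphatic endothelium that valve endothelium also makes. Cells with a Prox1 UMI made up 50.4% and 62.6% of the class and held Igfbp5 at 1851 and 564 CPM, a ratio of 0.305 (0.289 to 0.321). Cells without one held 3847 and 1785 CPM, a ratio of 0.464 (0.442 to 0.487). Within each library the level was thus higher in the cells without a Prox1 UMI. Those cells had fewer UMIs each in both libraries, so they can include cells that make Prox1 but were read too shallowly.

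Igfbp7 in endothelial-like cells, at 969.5 and 1168 CPM, had a ratio of 1.205 (1.16 to 1.26). Igf1 there had a ratio of 1.52 (1.37 to 1.69) and Igf1r one of 1.49 (1.31 to 1.70), on either side of the 1.5-fold limit. Igf1 no longer passed the limit in female cells (ratio 1.31), in cells with a Prox1 UMI (1.35), at the thinned depth (log2 ratio 0.56) or without the cells richest in Igfbp3 and Igfbp5 (log2 ratio 0.56). Igf1 was read in 49.6% and 60.1% of endothelial-like cells, and in 28.9% and 35.5% when thinned. Igf1 in this class was at 17.5% and 32.0% of its interstitial level. Erythroid genes summed to 32.0 and 663 CPM here. Among interstitial genes, Postn stood at 883 and 1606 CPM, Col1a1 at 54.4 and 88.1, Col1a2 at 70.8 and 116 and Col3a1 at 244 and 398 CPM. Mfap4 (47.0 and 24.4 CPM) and Prg4 (53.6 and 35.7 CPM) went the other way. The part of these transcripts in the Igf1 ratio was not tested.

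Igfbp4 in endothelial-like cells shows how few cells can set a value. Its levels were 247 and 219 CPM (ratio 0.888, 0.813 to 0.971), and 5 wild type cells rich in the lymphatic vessel genes Mmrn1, Ccl21a and Reln held 208 of the 933 wild type UMIs. The Fbn1 C1039G/+ library had 0 such cells. Without them the Igfbp4 ratio was 1.09 (0.993 to 1.20), from 201 and 219 CPM, Igfbp5 had a ratio of 0.323, and Igf1, at 1.47, no longer passed 1.5-fold. By Prox1 the Igfbp4 ratio went both ways past 1.5-fold: it was 0.665 (0.5998 to 0.738) in cells with a Prox1 UMI, from 313 and 208 CPM, and 1.78 (1.49 to 2.14) in cells without one, from 140 and 249 CPM. The 5 wild type cells rich in lymphatic genes were not removed from these values.

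In macrophage-like cells 6 of the 10 genes were measured, of which Igfbp3 and Igfbp5 were lower in the Fbn1 C1039G/+ library and none higher. Over all 6160 measured genes of this class 3.47% were lower and 1.4% higher. Both counts rest on few cells: Igfbp5 was read in 46 and 31 cells and Igfbp3 in 24 and 9. The 5 richest wild type cells held 817 of 914 Igfbp5 UMIs, and had a median of 28608 UMIs and of 19 endothelial UMIs, against a class median of 8328 UMIs. Igfbp3 passed the level filter at 21.2 CPM in the wild type library. The 5 cells richest in it held 119 of 174 and 8 of 12 UMIs. Those cells had a median of 0.650% and 0.703% of UMIs from the interstitial gate genes, against class medians of 0.024% and 0.0286%. What places Igfbp3 in them was not tested. Without the 5 richest cells of each library Igfbp5 stood at 12.03 and 4.18 CPM and Igfbp3 at 6.77 and 0.536 CPM. Igfbp5 turned to a log2 ratio of 0.03 once the barcodes with the highest doublet scores were removed and to 0.85 in male cells, and without barcodes holding endothelial UMIs past the limit of that class it was -0.09, so no direction can be given for it.

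Igf1, the member with most UMIs in macrophage-like cells, had a ratio of 1.11 (1.04 to 1.17), and Igfbp4 one of 1.01 (0.944 to 1.07). Igfbp7, at 269 and 184 CPM, had a ratio of 0.684 (0.639 to 0.732), just within 1.5-fold. These levels were only 5.70% and 3.46% of its interstitial levels. Interstitial markers stood at similar shares in this class, such as Lum (4.33% and 3.83%) and Mfap4 (4.58% and 3.99%). Both were also lower in the Fbn1 C1039G/+ library, Lum at 114 and 95.7 CPM and Mfap4 at 61.9 and 40.0 CPM. What places Igfbp7 in these cells was not tested. The Igfbp7 ratio passed 1.5-fold lower in female cells (log2 ratio -0.94), in male cells (-0.61), without barcodes with markers of a second class (-0.79) and without the cells richest in Igfbp5 and Igfbp3 (-0.73). Among melanocyte-like cells Igfbp5 was listed at 3 and 189 UMIs, the latter in 6 of 79 cells with 90 UMIs in 1 of them.

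The third question was how the genes are spread over interstitial-like cells. Clusters were made without the 10 genes and without the other IGF pathway genes, and 16 states with at least 30 cells in each library were kept and named by their leading genes. The states led by Lyz2 and C1qa, by Dct and Cd74, and by Egfl7 and H19 carry genes of macrophages, of pigment and immune cells and of endothelium. Of the 9 genes that reached 20 CPM in a state of each library, 6 had their highest level in the same state in both. With coarser clusters (resolution 0.5, 10 states) this held for 7 of 8 genes, Igf1 and Pappa now among them.

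**Figure D3:**
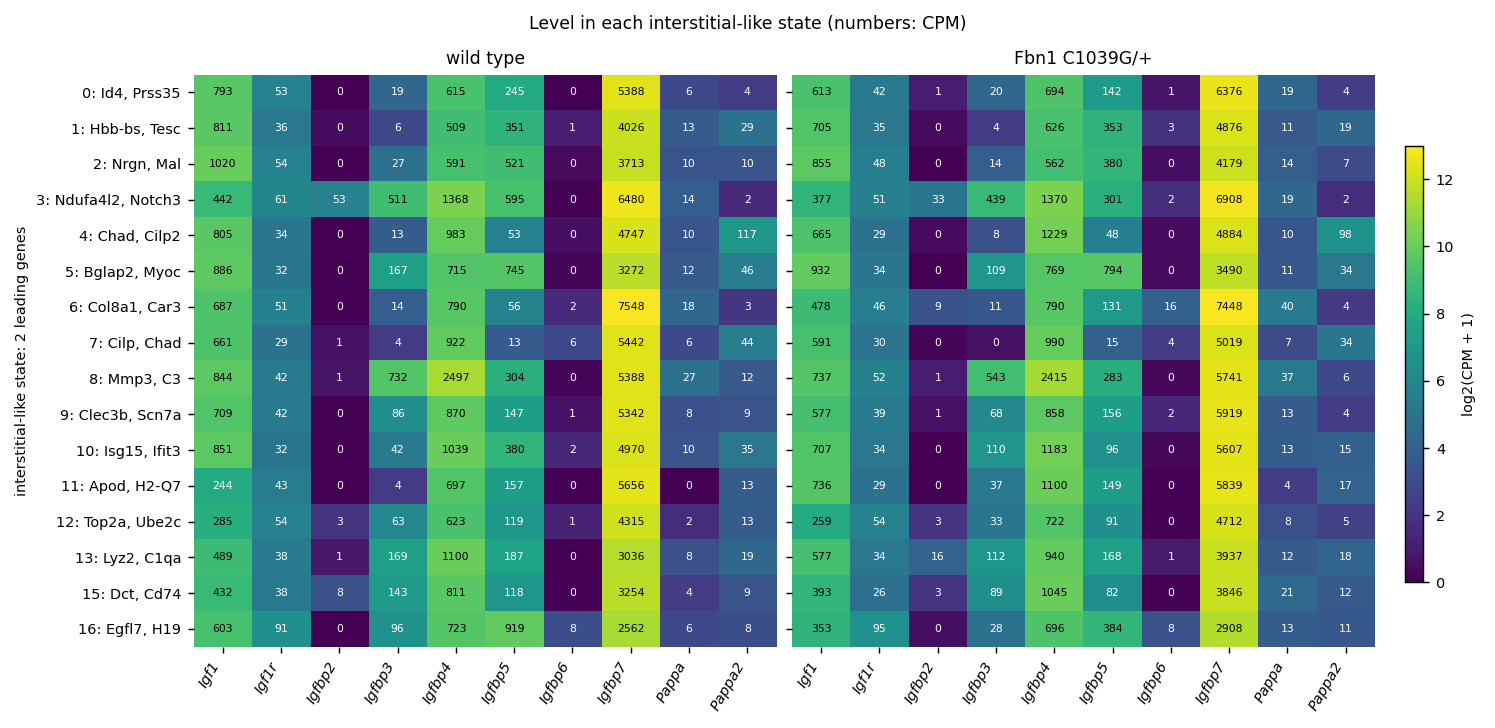
Level in CPM (printed numbers, coloured by log2(CPM + 1)) of each gene in 16 interstitial-like states, each named by its number and 2 leading genes, in the wild type (left) and Fbn1 C1039G/+ (right) library. Igfbp3 and Igfbp4 peak in the state led by Mmp3 and C3, Pappa2 in the state led by Chad and Cilp2, and Igfbp7 is high in all states.

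The Mmp3 and C3 state held the most Igfbp3, at 732 CPM (714 to 750) and 543 CPM (523 to 563), and 55.6% and 39.8% of all interstitial Igfbp3 UMIs. A second state, led by Ndufa4l2 and Notch3, held 511 CPM (487 to 537) and 439 CPM (409 to 471). No other state was above 169 CPM (wild type) or 112 CPM (Fbn1 C1039G/+). Igfbp4 peaked in the same Mmp3 state, at 2497 and 2415 CPM, against 509 and 562 CPM in the lowest state of each library. Over the 16 states Igfbp3 and Igfbp4 levels, as log2(CPM + 1), had a Pearson correlation of 0.62 and 0.56, a description over states that share a library and its depth.

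Cells pooled over all states showed the same pairing. This comparison takes in the difference between states, and cells within a state were not compared. The 836 and 613 interstitial-like cells with at least 3 Igfbp3 UMIs held Igfbp4 at 2062 CPM (2033 to 2091) and 1994 CPM (1961 to 2027). Cells with no Igfbp3 UMI held 813 CPM (806 to 819.5) and 850 CPM (843 to 857). Igfbp3-rich cells also held more Igfbp5, at 446 against 256 CPM and 352 against 196 CPM, and less Pappa2, at 12.99 against 35.6 CPM and 7.56 against 22.8 CPM.

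Pappa2 was highest in another state. The state led by Chad and Cilp2, genes of cartilage and tendon matrix, held it at 117 CPM (110 to 123) and 98.3 CPM (91.1 to 106), with 47.5% and 38.5% of all interstitial Pappa2 UMIs. In that state Igfbp3 stood at 13.4 and 8.47 CPM and Igfbp5 at 52.6 and 47.7 CPM, each far below its class level. The Bglap2 and Myoc state went the other way: it held Pappa2 at 45.8 and 34.4 CPM, above the class level, together with Igfbp3 at 167 and 109 CPM and Igfbp5 at 745 and 794 CPM. The 296 and 193 cells with at least 3 Pappa2 UMIs held Igfbp5 at 40.5 and 48.2 CPM, against 314 and 232 CPM in cells with none, and Igfbp3 at 28.5 and 12.4 CPM against 159 and 90.3 CPM. Summed over states, interstitial-like cells rich in this protease thus held less of these 2 binding proteins in both libraries, while Igfbp4 stood at 1187 and 1251 CPM in them and at 995 and 949 CPM in cells without Pappa2.

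Igfbp5 had 2 high states in the wild type, the state led by Egfl7 and H19 at 919 CPM (853 to 988) and the state led by Bglap2 and Myoc at 745 CPM (722 to 768). The order was the other way round with Fbn1 C1039G/+, at 384 CPM (360 to 410) and 794 CPM (772 to 816). The lowest level was in the state led by Cilp and Chad in both, at 12.9 and 14.8 CPM. Igfbp5 differed between the libraries by state: its ratio was 0.251 (0.229 to 0.275) in the interferon-gene state led by Isg15 and Ifit3, 1.07 (1.02 to 1.11) in the Bglap2 state and 2.36 (1.96 to 2.85) in the state led by Col8a1 and Car3, where the levels were 55.7 and 131 CPM.

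Igf1 was spread over all states, with 4.18-fold and 3.60-fold between its highest and lowest state, against 61.0-fold and 43.8-fold for Pappa2 (3.35 and 3.29, and 38.8 and 17.3, with the coarser clusters). It was highest in the state led by Nrgn and Mal in the wild type, at 1019.8 CPM (1000.9 to 1038.8), and in the Bglap2 state in the Fbn1 C1039G/+ library, at 932 CPM (908 to 956). Cycling cells (Top2a, Ube2c) held 285 and 259 CPM. The ratio was below 1 in 13 of 16 states, with the interval below 1 in 11. It was 3.02 (2.46 to 3.72) in the state led by Apod and H2-Q7, whose 37 wild type and 136 Fbn1 C1039G/+ cells had median depths of 14007 and 2679 UMIs.

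Igfbp7 varied least, from 2562 to 7548 CPM over the wild type states and from 2908 to 7448 CPM over the others, and its ratio was above 1 in 14 of 16 states. Igfbp3 had a ratio below 1 in 13 states, with the interval below 1 in 12, and Pappa2 in 10 states, with the interval below 1 in 8. Exceptions for Igfbp3 were the Isg15 state, at 41.7 and 109.9 CPM, and the Apod state, at 3.75 and 37.2 CPM. The Apod values rest on only 2 and 18 UMIs, with a ratio interval of 2.38 to 88.2. In the 2 states with most Igfbp3 the ratios were 0.742 (0.709 to 0.775) and 0.858 (0.787 to 0.935), and in the Chad and Cilp2 state the Pappa2 ratio was 0.844 (0.768 to 0.927), all within 1.5-fold.

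**Figure D4:**
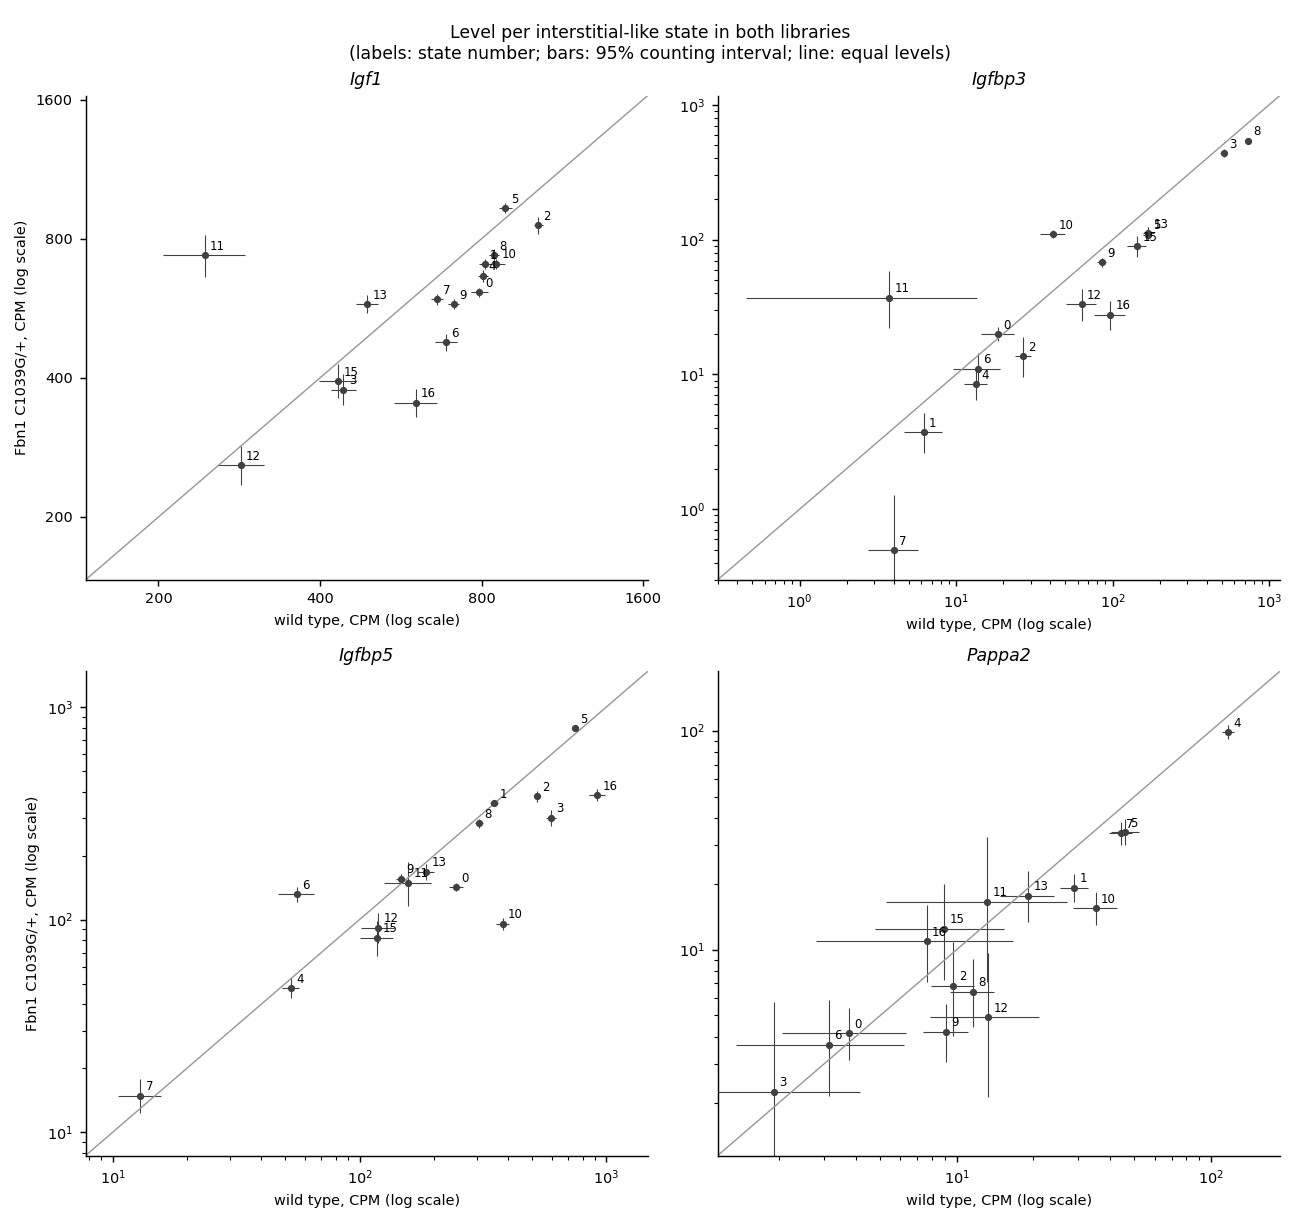
Level of 4 genes in each of 16 interstitial-like states, wild type on the x axis and Fbn1 C1039G/+ on the y axis (CPM, log scales), with 95% counting intervals, state numbers as labels and a line at equal levels. Most states lie below the line for Igf1 (13 of 16) and Igfbp3 (13 of 16), and the states with most Igfbp3 and Pappa2 lie close to it.

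The rarer members were placed as well. Igfbp2 was read mainly in the Ndufa4l2 and Notch3 state in the wild type, at 52.8 and 32.5 CPM, with 83.8% and 30.2% of its interstitial UMIs, from few cells. Pappa was highest in the Mmp3 state in the wild type, at 26.9 and 36.6 CPM, and in the Col8a1 and Car3 state with Fbn1 C1039G/+, at 18.4 and 40.2 CPM. Igf1r was highest in the state with endothelial genes, at 91.4 and 95.1 CPM, against 92.0 and 137 CPM in endothelial-like cells.

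Among 8611 genes with enough UMIs, the genes whose levels over the 16 states were most like each member were as follows, ranked by the smaller Pearson correlation of the 2 libraries and with no inference from it. Igfbp3 was most like Tnxb (0.89 and 0.93), Msc (0.96 and 0.89) and Gucy1a1 (0.89 and 0.95). Igfbp4 was most like Smim1, Gpx3 and Pcdh9, with correlations from 0.80 to 0.86. Pappa2 was most like Chad (0.87 and 0.86), Dapk2 and Atp8a2, and Igfbp7 most like Col16a1 (0.89 and 0.92), Serf1 and Gm6277. Igf1 was most like mt-Nd2 (0.90 and 0.87), Ctsf and Gprasp1, Igf1r most like Ywhab (0.93 and 0.91), Foxc2 and Rnf7, and Igfbp5 most like Atp1b1 (0.76 and 0.76), Jak1 and Notch1.

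The last question was how the rest of the IGF pathway stood in interstitial-like cells. Of 51 further genes, 33 were measured, 2 were lower in the Fbn1 C1039G/+ library and none was higher, against the 1.42% and 0.945% of all measured genes given above. Their median log2 ratio was -0.04. Both lower genes are secreted proteases: Htra3, a serine protease of the HTRA family, stood at 333 CPM (329 to 337) and 219 CPM (216 to 223), a ratio of 0.660 (0.648 to 0.672), and Adamts1, a metalloprotease of proteoglycans, at 54.2 CPM (52.7 to 55.8) and 34.6 CPM (33.4 to 35.8), a ratio of 0.638 (0.609 to 0.668). The count of lower genes was 1 in each sex taken alone, at the thinned depth, with each cell weighted equally and with the interstitial limit at 2%.

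**Figure D5:**
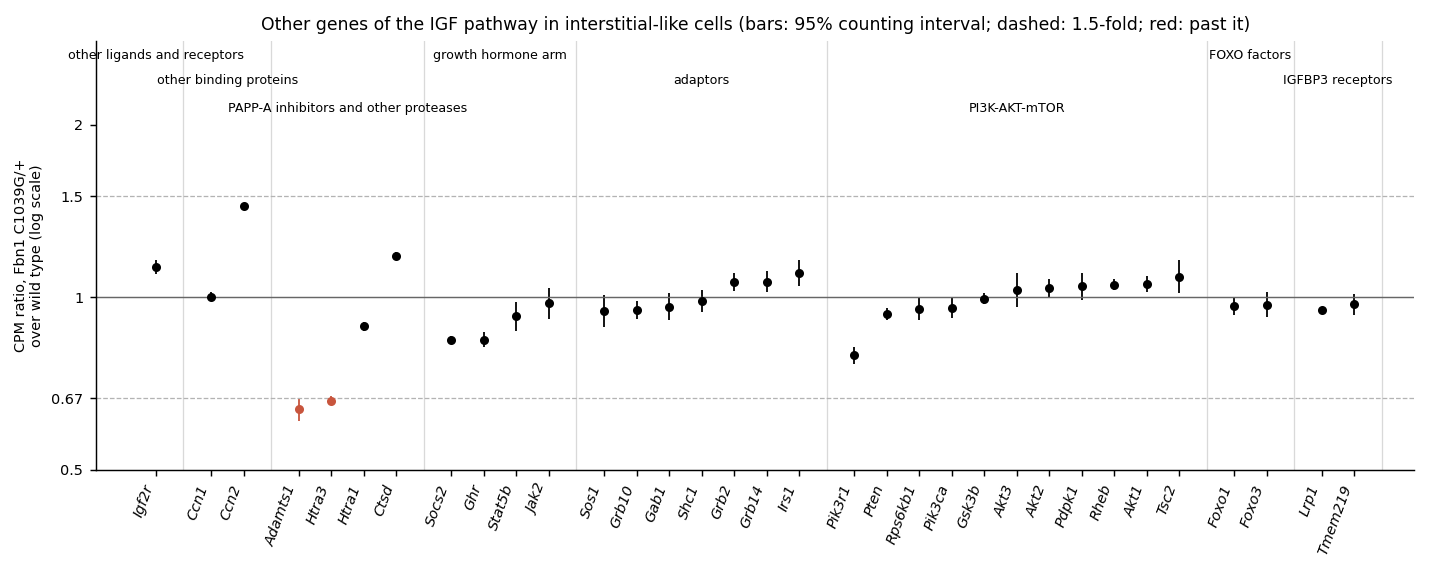
Ratio of CPM, Fbn1 C1039G/+ over wild type (log scale), of the 33 measured IGF pathway genes in interstitial-like cells, grouped by role, with 95% counting intervals and dashed lines at 1.5-fold. Adamts1 and Htra3, in red, lie below the lower line, and Ccn2 lies just under the upper one at 1.44.

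Other ligands were scarce in interstitial-like cells, with Igf2 at 7.32 and 9.55 CPM. The binding protein gene Igfbp1 had 0 UMIs there. Endothelial-like cells held Igf2 at 422 CPM (402 to 443) and 291 CPM (276 to 306), a ratio of 0.689 (0.641 to 0.740). Of the other receptors, Igf2r, which takes up IGF2 for breakdown, stood at 113 and 128 CPM in interstitial-like cells and Insr at 13.99 and 14.3 CPM. The pappalysin inhibitors Stc1 (4.99 and 3.82 CPM) and Stc2 (12.01 and 8.44 CPM) were under the level filter, and the protease Htra1 stood at 278 and 247 CPM.

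Ccn2, a matricellular protein once counted among IGF-binding proteins, was at 486 and 699.8 CPM (ratio 1.44, 1.42 to 1.46), within 1.5-fold. In the growth hormone arm, which drives Igf1 in many tissues, the receptor Ghr stood at 118 and 99.2 CPM (ratio 0.843) and the feedback inhibitor Socs2 at 428 and 361 CPM (ratio 0.844). Of the adaptors, Irs1 stood at 33.5 and 36.9 CPM and Irs2 at 13.8 and 6.81 CPM, under the level filter. The 11 measured genes of the PI3K, AKT and mTOR arm had log2 ratios from -0.33 (Pik3r1) to 0.11.

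In the other classes, 24 of the 51 genes were measured in macrophage-like cells, with 4 lower (Ccn1, Ccn2, Irs2 and Socs2) and none higher, against 3.47% and 1.4% of all measured genes. In endothelial-like cells 34 were measured, with Ccn1 (94.1 and 171 CPM) and Ccn2 (57.3 and 113 CPM) higher and Htra1 (168 and 80.9 CPM) and Stc1 (43.6 and 24.2 CPM) lower, against 3.22% higher and 3.23% lower over all measured genes. Ccn1 and Ccn2 were thus lower in macrophage-like and higher in endothelial-like cells of the Fbn1 C1039G/+ library, and the difference between those classes was not tested. The interstitial gate genes Dcn, Col1a1, Col1a2 and Col3a1 went the same ways. Col1a1, for example, stood at 141 and 90.9 CPM in macrophage-like and 54.4 and 88.1 CPM in endothelial-like cells. The interstitial markers Mfap4 and Prg4 were lower in both classes. In macrophage-like cells Ccn2 stood at 35.5 and 17.2 CPM and Socs2 at 29.5 and 19.1 CPM, each far below its interstitial level. Ccn2 in endothelial-like cells was also well below its interstitial level. What places these transcripts in those classes was not tested.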

How the data were processed

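The deposited tables hold raw UMI counts of genes in single barcodes, which the authors produced with Cell Ranger against mm10. The submitters' processing notes name Cell Ranger 3.1.0, and per the file headers the software was Cell Ranger 5.0.1. The handling of intronic reads is not given in the sources used here. Barcodes under 1000 UMIs or over 20% mitochondrial UMIs were left out, and the rest were put in classes by summed UMIs of gate genes, with no clustering. Counts were summed by class and library and scaled to CPM. Intervals at 95% are exact (Poisson for levels, Clopper-Pearson for shares, conditional binomial for ratios) and cover counting error only. Log2 ratios used a pseudocount of 1 CPM. With 1 library a genotype, no test and no p-value was possible.

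Interstitial-like states came from Leiden clustering in scanpy 1.11.5 (2000 variable genes, 30 principal components, 15 neighbours, resolution 1), without the 10 genes, the 51 pathway genes, mitochondrial genes or sex-linked genes. The 3 genes named beside a member had the highest smaller Pearson correlation of the libraries over states. Scrublet's automatic threshold called 0 doublets in both libraries and so did not work, and doublets were left in, with an alternative that removed the 732 and 752 highest scores. Cells were assigned to a sex by Xist and Y-linked genes for the analysis by sex. Promoter windows matched 9 of the 10 genes by symbol and came from RefSeq (GRCm38.p6).

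The members and lists were chosen with earlier results of these data known, and 3 alternatives were chosen after seeing the data: without the cells richest in Igfbp5 and Igfbp3, endothelial-like cells with a Prox1 UMI only, and without endothelial-like cells rich in Mmrn1, Ccl21a and Reln.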

Additional observations from a re-analysis of the deposited data

Results flagged for a closer look

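Some log2 ratios (Fbn1 C1039G/+ over wild type) pointed one way in one class or sex and the other way in another, with counting intervals that excluded 1 for both. With 1 library a genotype, none of these differences was tested. For Igf1, the log2 ratio was -0.26 in interstitial-like, 0.15 in macrophage-like and 0.60 in endothelial-like cells. The differences from interstitial-like cells were 0.41 and 0.86. The endothelial-like value rests on levels of 17.5% and 32.0% of the interstitial level, and what places Igf1 there was not tested. For Igf1r, the log2 ratio was -0.07 in interstitial-like and 0.57 in endothelial-like cells, a difference of 0.64.

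Igfbp7 was at 0.17 in interstitial-like, -0.55 in macrophage-like and 0.27 in endothelial-like cells. The macrophage-like value rests on levels of 5.70% and 3.46% of the interstitial level, close to the shares of several interstitial markers there. What places Igfbp7 in macrophage-like cells was not tested. Macrophage-like minus interstitial-like cells gave -0.72, and endothelial-like minus macrophage-like cells gave 0.81. Igfbp4 went opposite ways by sex, with -0.17 in female and 0.09 in male interstitial-like cells (male minus female 0.26). In endothelial-like cells it was at -0.47 in female and 0.28 in male cells (male minus female 0.75), and 3 of the 5 wild type cells that held 208 of its 933 UMIs were female.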

How the results depend on the processing

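Of 448 alternative values of the members' log2 ratios, 411 had the same direction and 414 the same call. For the called members these numbers were 94 and 74 of 96. In interstitial-like cells, members called lower went from 2 to 1 with the mean of per-cell CPM and with cells thinned to 3000 UMIs (Igfbp3) and in male cells (Igfbp5, log2 ratio -0.65, not called otherwise), and members called higher from 0 to 1 with no filter on low levels (Igfbp6). With each state given the same weight in both libraries, neither Igfbp3 (-0.36) nor Pappa2 (-0.39) was called lower. Lower pathway genes went from 2 to 1 with the gate at 2%, the mean of per-cell CPM, female cells, male cells or thinning, and to 4 with no filter. Higher pathway genes went from 0 to 1 in female cells. These pathway counts do not say which genes. In macrophage-like cells, lower members went from 2 to 0 without the highest Scrublet scores and to 1 with the mean of per-cell CPM or thinning (Igfbp5) and with female cells, male cells or without the richest cells (Igfbp7), and higher members from 0 to 1 in male cells (Igfbp5). Igfbp5 reversed there, to a log2 ratio of 0.029 without the highest Scrublet scores and 0.85 in male cells. In endothelial-like cells, higher members went from 1 to 2 with the mean of per-cell CPM or no filter (Igf1 and Pappa) or male cells (Igf1 and Igf1r), and to 0 with female cells, thinning, without the richest cells, with Prox1 cells only or without the cells rich in Mmrn1, Ccl21a and Reln. Lower members went from 1 to 3 with no filter (Igfbp3, Igfbp5 and Igfbp6) and to 2 with Prox1 cells only (Igfbp4 and Igfbp5). The cause of these moves was not tested.

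Log2 ratios ranged from -0.93 to -0.36 for Igfbp3 and from -0.77 to -0.39 for Pappa2 in interstitial-like cells. In endothelial-like cells they ranged from -1.71 to -1.33 for Igfbp5, called lower under all 17 alternatives run, and from 0.39 to 0.75 for Igf1, called under 12 of 17. No paired analysis was possible because each genotype has 1 library. Intervals leave out the spread between mice.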
